A study of Mus musculus with 12 samples.

Results

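The heat shock and unfolded protein response genes described here were a list of 39 genes for chaperones, their co-chaperones and the regulators of both stress responses. Members were found by name: each non-control probe whose gene symbol, current or older, was on the list counted. Of the 39 genes, 38 had a probe, and all 38 were tested among 18274 genes. They were covered by 74 of 41174 probes, of which 69 passed the filter on dim signal. Hspa1b, an inducible HSP70 gene nearly identical to Hspa1a, was named by no probe, so its level was not analysed here, and the Hspa1a probes may also bind its transcript.

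RNA came from whole hearts of 12 male C57BL/6 mice, 1 single-colour Agilent array per heart. In cardioGRMRdKO mice, called knockout here, a Cre transgene under the αMHC promoter, active in cardiomyocytes, acted on floxed alleles of Nr3c1 and Nr3c2, the genes of the glucocorticoid and mineralocorticoid receptors. Their dflox littermates carried both floxed genes without Cre. The groups were knockout and dflox hearts at 1 month and knockout and dflox hearts at 2 months, with 3 hearts each. No group carried Cre with unfloxed receptor genes, so receptor loss and Cre cannot be told apart, and heart cells other than cardiomyocytes are outside the reach of this Cre. A level below is the log2 of the signal over the array's 75th percentile. A gene was called at a limma adjusted p under 0.05 over all genes tested.

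Heat shock proteins fold new proteins and hold damaged ones. In the cytosol, HSP70 and HSP90 work with HSP40, BAG and other co-chaperones, and the factor Hsf1 switches their genes on when unfolded protein builds up. The same machinery keeps steroid receptors able to bind hormone: HSP90 holds the receptor together with the immunophilin Fkbp5 or its counterpart Fkbp4, which favours receptor activity. In the endoplasmic reticulum, unfolded protein sets off the unfolded protein response, in which Xbp1 and Atf4 raise chaperones such as Hspa5 and, under lasting stress, the factor Ddit3.

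The regions upstream of 4 members are shown because they carry the letters by which both stress responses are known: Hsph1, the only member called in any comparison with all 12 hearts in the fit, Hspa1a and Fkbp4 for the heat shock element, and Hspa5 for the endoplasmic reticulum stress element. Each sequence is the 200 bases before the transcription start that RefSeq lists on GRCm38.p6, read 5′ to 3′ on the gene's own strand. Capitals mark the fixed letters of a matched motif. Hsph1 lies at chr5:149636337-149636536 (minus strand), Hspa1a at chr17:34972157-34972356 (minus strand), Fkbp4 at chr6:128438657-128438856 (minus strand) and Hspa5 at chr2:34771890-34772089 (plus strand).
Hsph1: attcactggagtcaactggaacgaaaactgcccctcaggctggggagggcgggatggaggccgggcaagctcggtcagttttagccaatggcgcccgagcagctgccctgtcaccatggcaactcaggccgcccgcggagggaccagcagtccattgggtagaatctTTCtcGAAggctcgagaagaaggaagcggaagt
Hspa1a: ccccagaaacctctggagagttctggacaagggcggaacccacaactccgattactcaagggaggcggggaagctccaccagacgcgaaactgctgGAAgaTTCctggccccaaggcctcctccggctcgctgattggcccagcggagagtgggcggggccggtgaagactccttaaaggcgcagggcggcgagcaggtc
Fkbp4: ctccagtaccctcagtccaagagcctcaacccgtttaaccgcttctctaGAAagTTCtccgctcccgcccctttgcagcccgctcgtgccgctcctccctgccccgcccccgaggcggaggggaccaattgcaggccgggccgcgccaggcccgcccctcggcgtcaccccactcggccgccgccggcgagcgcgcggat
Hspa5: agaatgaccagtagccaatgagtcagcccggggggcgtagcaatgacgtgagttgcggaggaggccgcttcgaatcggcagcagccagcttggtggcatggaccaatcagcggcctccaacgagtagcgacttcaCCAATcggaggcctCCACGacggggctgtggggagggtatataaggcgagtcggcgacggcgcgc

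The window was listed for 32 of the 39 genes, and both strands were searched. The entries not found were those of Hspa8, Hsp90aa1, Hsp90ab1, Hspb2, Cryab, Hspa9 and Hsf1. A pair of heat shock units facing each other, GAANNTTC, lay upstream of 6 members (Hspa1a, Hspa1b, Fkbp4, Dnaja1, Hspb1 and Hspe1), 18.8% of those listed, against 5.43% of 27025 genes. The pair facing away, TTCNNGAA, lay upstream of Hsph1 and Hspe1, 6.25% of the members against 5.75% of all genes. These motifs overlap where units follow one another, as upstream of Hspe1, the single member with 3 units in a row (0.333% of all genes). The endoplasmic reticulum stress element, CCAAT and CCACG with 9 bases between them, lay upstream of Hspa5, Hsp90b1, Calr, Canx and Pdia6, 15.6% of the members against 0.111% of all genes. The amino acid response core TGATGCAA was found upstream of Herpud1 alone (0.681% of all genes). The palindrome of the glucocorticoid response element, GNACA and TGTNC with 3 bases between them, was in 0 of the 32 windows and in 0.259% of all genes. A match is a run of letters, not a measured site.

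On each array, 63.7% to 71.9% of the spots stood well above background. The cardiomyocyte marker list averaged 6.24 to 6.78 over the 12 hearts. A marker average took the genes with a usable spot on that array. On all 12 arrays, 6 of 8 cardiomyocyte and 7 of 8 fibroblast markers were usable and well above background, so averages of different hearts may rest on different genes. At 2 months Nr3c1 was at 1.15 to 1.45 in knockout hearts, against 2.18 to 2.51 in dflox hearts, and fell by 1.10 (SE 0.14, adjusted p = 0.00567, limma), while its difference of −0.73 at 1 month, from 2 usable hearts a group, did not pass (adjusted p = 0.12). Nr3c2 was dim, and its differences of 0.064 and −0.46 did not pass (adjusted p = 0.9998 and 0.651). One heart stood apart: in knockout 2-month replicate 3 the array's 75th percentile was 1079, against 479 to 810 on the other 11 arrays, its cardiomyocyte markers averaged 6.24, against 6.52 or more elsewhere, and its fibroblast markers averaged 3.05, against 3.58 or more. It held the lowest value of its group for 21 of 38 members, 55.3%, against 49.6% of all genes. Markers of airway epithelium averaged −4.13 to −2.57 in knockout and 0.63 to 1.82 in dflox hearts at 1 month, and −4.21 to 1.82 in knockout and −4.09 to 2.20 in dflox hearts at 2 months. At 1 month every knockout array lay in an inner place of its slide and every dflox array in an outer one, so genotype and place on the slide cannot be told apart in the younger hearts.

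Few of the 38 measured genes passed the test between genotypes. At 1 month 0 of 38 members were called, where 0.969% of all genes were. At 2 months 1 of 38 was called, Hsph1, where 2.31% of all genes were, and over both ages together again 1 of 38, Hsph1, where 4.5% were. The median log2 difference of the members was 0.018 at 1 month and 0.014 at 2 months, beside −0.0011 and −0.095 over all genes. At an unadjusted p under 0.05, 2 members stood out at 1 month (Ddit3 and Hspa9), against 9.39% of all genes, 5 at 2 months (Hsph1, Hspb1, Calr, Herpud1 and Sdf2l1), against 15.6%, and 8 over both ages, against 17.6%. The groups did not overlap for 6 members at 1 month and for 8 at 2 months, against 18.9% and 17.7% of all genes. The shares of members lie near those of all genes. The difference lay within 0.2 of 0 for 30 of 38 members at 1 month and for 19 of 38 at 2 months. The 95% interval lay within 0.5 of 0 for 22 members at 1 month and 19 at 2 months, with a median half-width of 0.33.

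**Figure D1:**
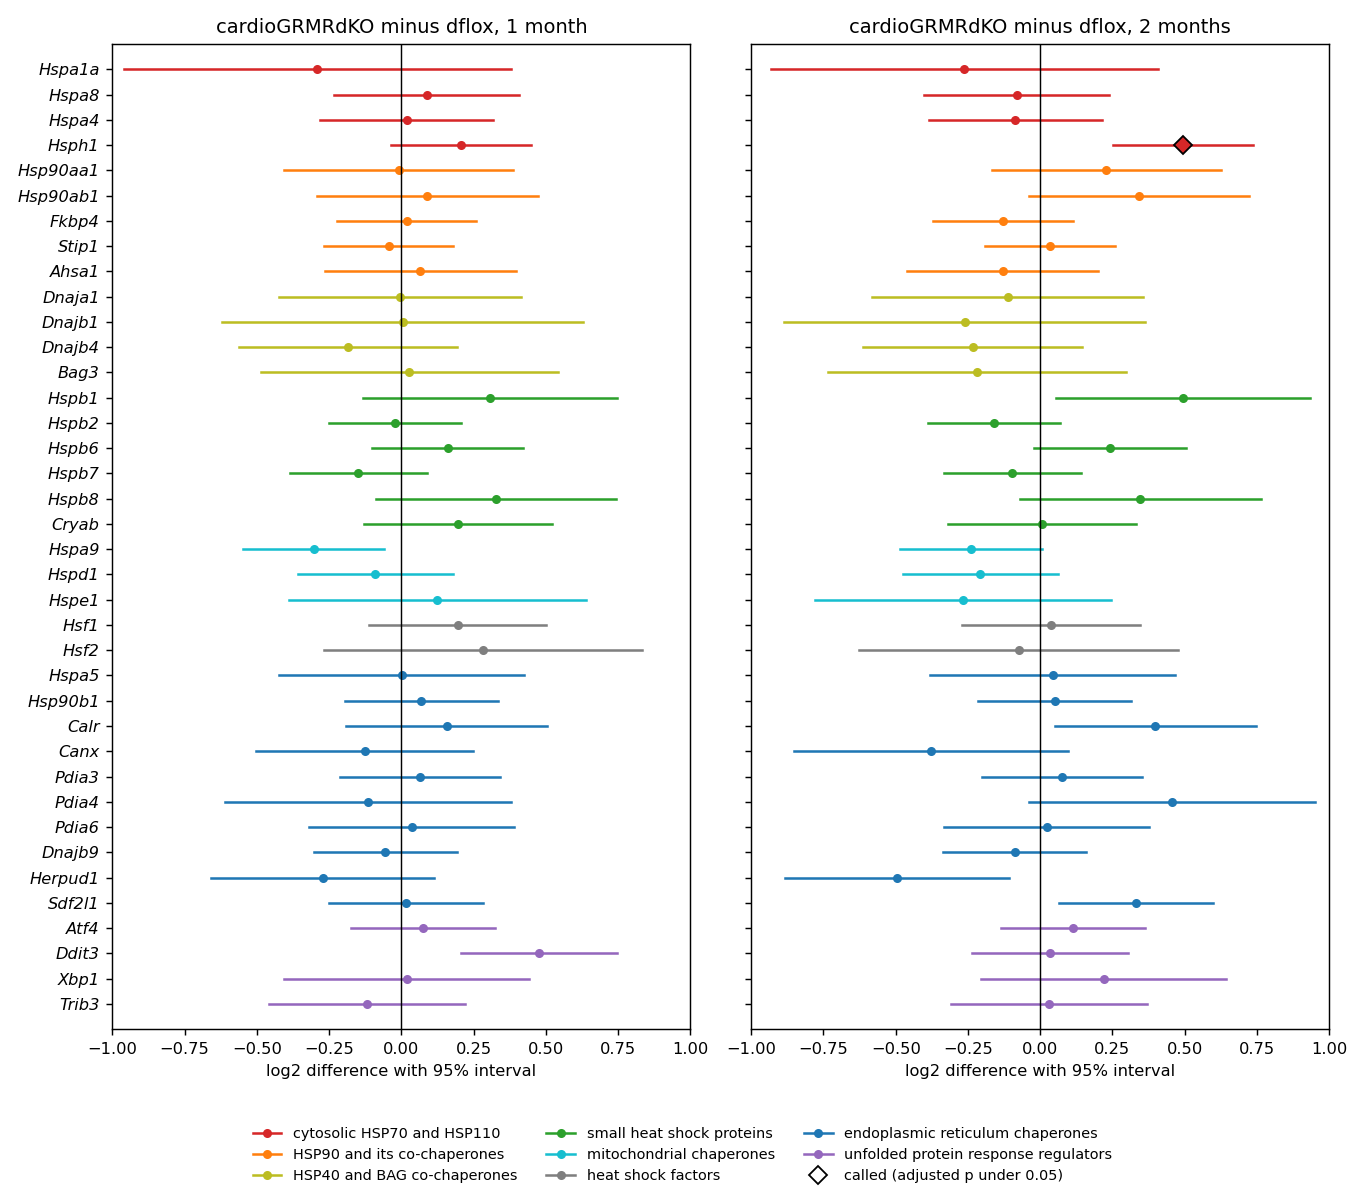
Log2 difference between knockout (cardioGRMRdKO) and dflox hearts of each of the 38 measured genes at 1 month (left) and 2 months (right), with its 95% interval from limma, coloured by role. The 1 diamond marks Hsph1 at 2 months, the only called difference at a single age, and most intervals include 0.

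Among the cytosolic HSP70 and HSP110 genes, Hsph1 rose in knockout hearts at 2 months by 1.41-fold and the other 3 did not pass. Hsph1 encodes an HSP110 chaperone, the exchange factor that recharges HSP70, and was read by 1 probe (mm7, chr5:148550005-148550064). At 2 months its level was 3.57, 3.71 and 3.42 in knockout hearts, against 3.05, 3.12 and 3.03 in dflox hearts. Every knockout heart was above every dflox heart. The difference was 0.49 (SE 0.11, adjusted p = 0.0466, limma). At 1 month its level was 2.75, 2.82 and 2.83 in knockout hearts, against 2.49, 2.77 and 2.53 in dflox hearts, which overlapped in 1 dflox heart. That difference of 0.20 did not pass (SE 0.11, adjusted p = 0.674), and the change of the genotype effect with age, 0.29, did not either (SE 0.15, adjusted p = 0.934). Averaged over both ages Hsph1 rose by 0.35 (SE 0.077, adjusted p = 0.0302), and within the slides that held both genotypes its differences were 0.33 and 0.19 at 1 month and 0.36 and 0.63 at 2 months. That average was no longer called without any 1 of 10 hearts (adjusted p 0.0565 to 0.0887) or with the airway marker level as a covariate (adjusted p = 0.0857). The 2-month call is close to the threshold. It held without dflox 1-month replicate 2 or without knockout 2-month replicate 3 and was lost without any 1 of the same 10 hearts (adjusted p 0.0654 to 0.143), and the difference over all 12 such fits lay between 0.42 and 0.57. It was also lost with normexp background correction (adjusted p = 0.162), with place on the slide as a covariate (adjusted p = 0.106) and in a fit of those 2 groups alone (adjusted p = 0.289).

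Hspa1a, the inducible HSP70, varied more between hearts than between genotypes. Its level was 0.97, 0.14 and 0.38 in knockout hearts, against 1.30, 0.55 and 0.52 in dflox hearts, at 1 month. At 2 months it was 0.48, 0.60 and −0.22 in knockout hearts, against 0.23, 0.76 and 0.65 in dflox hearts. The groups overlapped at both ages, and the differences of −0.29 and −0.26 came with an SE of 0.30. Without knockout 2-month replicate 3 the 2-month difference was −0.0081. All 4 of its probes gave a negative difference at both ages, from −0.88 to −0.18. The −0.88, at 1 month, came from a dim probe with levels from −5.8 to −3.7. These probes read the same hearts, so their signs are not independent. Hspa8, the constitutive HSP70, read by a probe that the files place on another chromosome than RefSeq lists for the gene, differed by 0.087 at 1 month and −0.081 at 2 months, and Hspa4, a second HSP110 relative, by 0.018 and −0.087.

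HSP90 and the co-chaperones that load its clients did not pass in either genotype comparison, 0 of 5 at each age. Fkbp4, the receptor co-chaperone (mm7, chr6:128456421-128456480), was at 3.69, 3.65 and 3.71 in knockout hearts, against 3.58, 3.86 and 3.56 in dflox hearts, at 1 month, and the knockout hearts lay inside the dflox range. At 2 months it was 3.80, 3.75 and 3.84 in knockout hearts, against 3.85, 3.85 and 4.07 in dflox hearts, which did not overlap by a narrow margin. Its differences were 0.018 (95% interval −0.22 to 0.26) and −0.13 (−0.37 to 0.11). Its second, dimmer probe gave −0.024 and 0.21, opposite in sign at each age. Fkbp5, the counterpart immunophilin and a known target of the glucocorticoid receptor, was at −2.89, −3.13 and −2.61 in knockout hearts, against −2.65, −2.26 and −1.89 in dflox hearts, at 1 month. The groups overlapped there, and the differences of −0.61 at 1 month and −0.52 at 2 months did not pass (SE 0.27 each, adjusted p = 0.509 and 0.368).

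Hsp90aa1, the inducible HSP90, was at 5.51, 5.46 and 4.88 in knockout hearts, against 4.90, 5.25 and 5.02 in dflox hearts, at 2 months, with 1 knockout heart, replicate 3, below all dflox hearts. The difference of 0.23 (SE 0.18, adjusted p = 0.54) was 0.43 without that heart. At 1 month it was at 4.71, 4.82 and 4.73 in knockout hearts, against 4.86, 4.91 and 4.52 in dflox hearts. Hsp90ab1, the constitutive form, differed by 0.34 at 2 months (95% interval −0.041 to 0.72), and by 0.22 without knockout replicate 3. Stip1, which bridges HSP70 to HSP90, and Ahsa1, which stimulates HSP90, stayed between −0.13 and 0.065 at both ages.

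On their brightest probes, the HSP40 and BAG genes followed single hearts at 2 months. These co-chaperones pass clients to HSP70, and Bag3 links it to autophagy of damaged sarcomere proteins. Relative to each gene's mean over the hearts, the 4 genes had a median of −0.45 in knockout 2-month replicate 3, against 0.20 and 0.18 in the other knockout hearts and 0.070 to 0.25 in dflox hearts of that age. Their median difference at 2 months was −0.23 with all hearts and 0.0047 without that heart, and none was called. Their other kept probes went both ways at 2 months: 0.21 for Dnajb1, 0.011 and 0.31 for Dnaja1, −0.37 and −0.29 for Dnajb4 and −0.30 for Bag3. That Bag3 probe did not overlap at 2 months. The Dnajb4 probe at −0.29 was dim, with levels from −7.47 to −4.59 over the hearts. On the brightest Dnajb4 probe the genotypes did not overlap at 1 month, with a difference of −0.18 (adjusted p = 0.945, limma). The Dnajb4 probe at −0.37 was lower in every knockout than every dflox heart of its age. Over both ages it differed by −0.38 (adjusted p = 0.0586, limma on each kept probe). Dnajb1, the main heat-inducible HSP40, was at 3.75, 3.26 and 2.78 in knockout hearts, against 3.26, 3.41 and 3.90 in dflox hearts, at 2 months. At 1 month it was at 4.18, 3.52 and 3.82 in knockout hearts, against 4.21, 3.70 and 3.60 in dflox hearts, with almost complete overlap. The 2 hearts with the most Dnajb1, knockout and dflox replicate 1 at 1 month, were also the 2 with the most Hspa1a and the most Fos, an immediate early gene (levels −0.13 and −0.16). Fos ran down to −3.96 elsewhere, was singled out after its values were seen, and its part in these values was not tested.

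**Figure D2:**
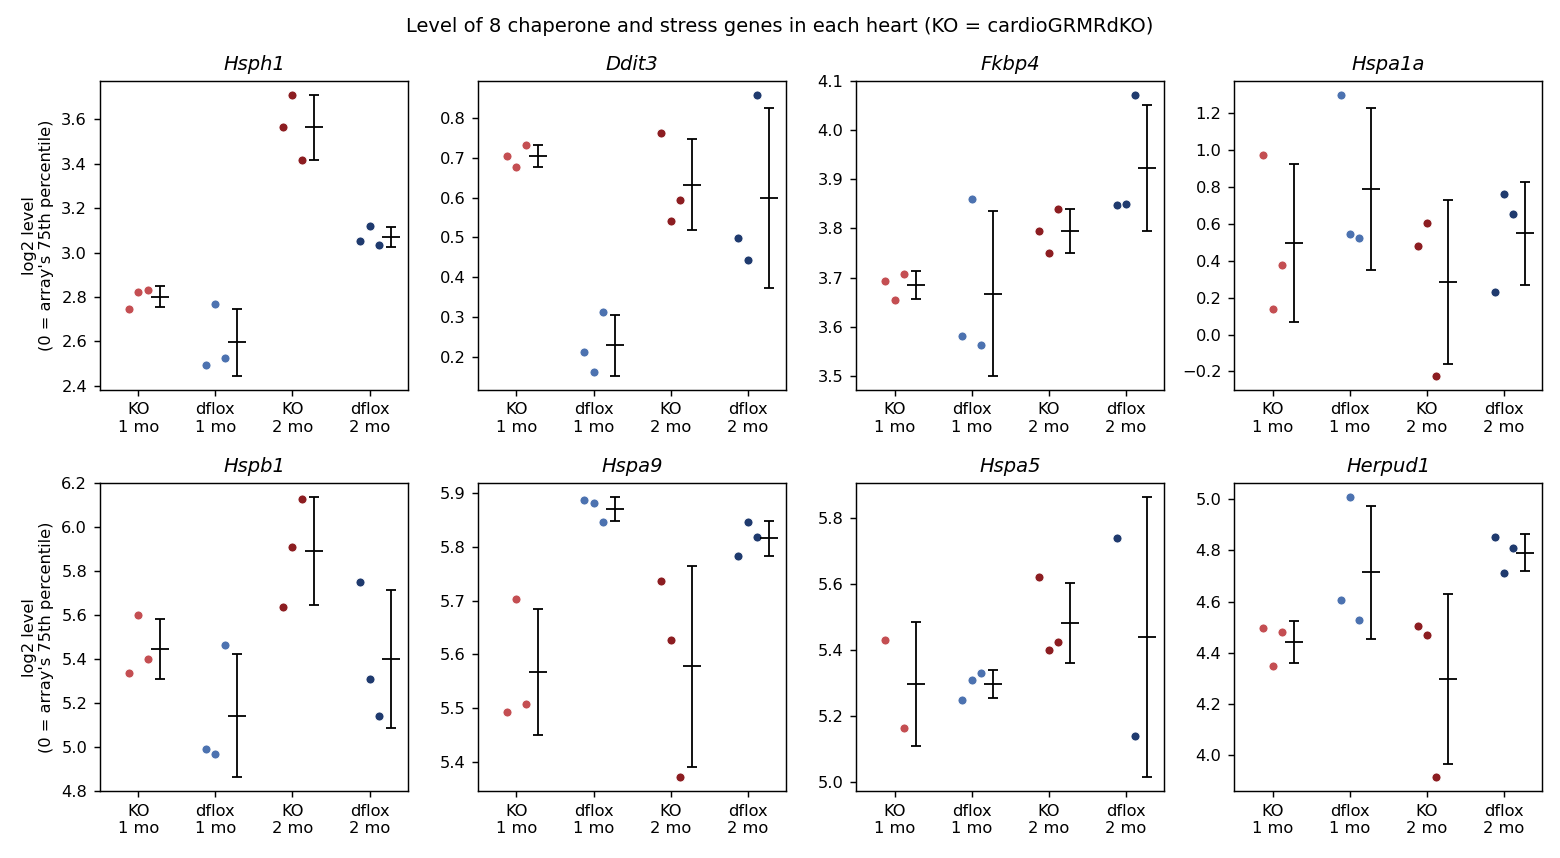
Log2 level of 8 genes in each heart, relative to the array's 75th percentile, with mean and SD of the group beside the points. KO is cardioGRMRdKO, n = 3 hearts a group, except that Hspa5 has 2 in knockout hearts at 1 month and 2 in dflox hearts at 2 months. Hsph1 is higher in every knockout than every dflox heart at 2 months, and Ddit3 at 1 month.

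The small heat shock proteins bind unfolding proteins without ATP and are abundant in heart muscle. They gave 0 called of 6 at each age, with 4 of 6 differences above 0 at both on their brightest probes. Hspb6, a phosphorylated relative found in muscle, was at 3.79, 3.81 and 3.70 in knockout hearts, against 3.60, 3.68 and 3.54 in dflox hearts, at 1 month. The 2-month levels were 4.02, 4.07 and 4.39 in knockout hearts, against 4.01, 3.97 and 3.78 in dflox hearts. The genotypes did not overlap at either age, by margins smaller than the spread, and the differences of 0.16 and 0.24 (SE 0.12 each) had adjusted p of 0.861 and 0.353. Without knockout 2-month replicate 3 the 2-month difference was 0.13. Hspb1 differed by 0.30 at 1 month and by 0.49 at 2 months (SE 0.20, adjusted p = 0.267 at 2 months). Hspb8, the partner of Bag3, differed by 0.33 and 0.35 and did not overlap at either age, again without passing (adjusted p = 0.72 and 0.39). Cryab, the most studied of them in heart, differed by 0.20 and 0.0060 on its brightest probe, while its second, dimmer probe gave −0.41 and −0.56. On that second probe every knockout heart lay below every dflox heart of either age. Over both ages it differed by −0.48 (adjusted p = 0.0756, limma on each kept probe). Hspb2 and Hspb7 lay between −0.16 and −0.023 on their brightest probes. The second probe of Hspb7 gave −0.25 and −0.39, and its genotypes did not overlap at either age. Neither difference passed (adjusted p = 0.806 and 0.278, limma on each kept probe). The second probe of Hspb2 gave −0.19 and −0.062.

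The mitochondrial chaperones did not pass, 0 of 3 at each age. Hspa9, the HSP70 that pulls proteins into mitochondria, was at 5.49, 5.70 and 5.51 in knockout hearts, against 5.89, 5.88 and 5.85 in dflox hearts, at 1 month. The 2-month levels were 5.74, 5.63 and 5.37 in knockout hearts, against 5.78, 5.85 and 5.82 in dflox hearts. All 6 knockout hearts were below all 6 dflox hearts, and the differences were −0.30 (SE 0.11, adjusted p = 0.361) and −0.24 (adjusted p = 0.332). Averaged over both ages the difference was −0.27 (SE 0.078, adjusted p = 0.0907). Its second probe was lower in knockout hearts too, by −0.29 and −0.10 as log2 differences. Hspd1 and Hspe1, which form the folding chamber of the matrix, differed by −0.090 and 0.12 at 1 month and by −0.21 and −0.27 at 2 months. The median of the 3 genes at 2 months was −0.24 with all hearts and −0.12 without knockout replicate 3. The cardiomyocyte marker level, averaged over the usable markers of each array, was also lower in knockout hearts. It was 6.52 to 6.67 against 6.71 to 6.78 in dflox hearts at 1 month and 6.24 to 6.72 against 6.75 to 6.77 at 2 months. Its part in the mitochondrial values was not tested. In whole-heart RNA, fewer cells of a type and less RNA per cell cannot be told apart.

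The heat shock factors themselves did not pass. Hsf1, the factor that drives the heat shock genes, was at 3.84, 3.66 and 3.61 in knockout hearts, against 3.42, 3.37 and 3.73 in dflox hearts, at 1 month. The 2-month levels were 3.56, 3.97 and 3.63 in knockout hearts, against 3.62, 3.72 and 3.72 in dflox hearts, and the groups overlapped at both ages. Its differences were 0.19 (95% interval −0.11 to 0.50) and 0.037 (−0.27 to 0.34). Hsf2, a factor active in development, was near background, with 1 of 3 dflox arrays well above it at 1 month. Its levels then were −5.04, −5.14 and −5.16 in knockout hearts, against −5.65, −5.83 and −4.70 in dflox hearts. That difference of 0.28 had an SE of 0.25. The 2-month levels of Hsf2 were −5.01, −5.09 and −4.89 in knockout hearts, against −4.68, −4.98 and −5.10 in dflox hearts, a difference of −0.075. Between ages in dflox hearts Hsf2 differed by 0.47 (SE 0.25, adjusted p = 0.423, limma).

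The endoplasmic reticulum chaperones gave 0 called of 10 at each age, with 3 at an unadjusted p under 0.05 at 2 months in opposite directions. Hspa5, the HSP70 of this compartment and the sensor that holds the unfolded protein response off, was at 5.43 and 5.16 in the 2 usable knockout hearts, against 5.25, 5.31 and 5.33 in dflox hearts, at 1 month. At 2 months it was at 5.62, 5.40 and 5.43 in knockout hearts, against 5.74 and 5.14 in the 2 usable dflox hearts, so the ranges were nested at both ages. Its differences were 0.0012 (95% interval −0.42 to 0.42) and 0.043 (−0.38 to 0.47). Sdf2l1, a co-chaperone of Hspa5, was at 0.41, 0.61 and 0.40 in knockout hearts, against 0.26, 0.053 and 0.12 in dflox hearts, at 2 months, and the groups did not overlap. That difference was 0.33 (SE 0.12, adjusted p = 0.229), beside 0.015 at 1 month, when knockout hearts were at −0.090, −0.0042 and 0.11 and dflox hearts at −0.22, 0.051 and 0.13.

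Herpud1, which takes part in clearing unfolded proteins from the reticulum, ran the other way. It was at 4.50, 4.47 and 3.91 in knockout hearts, against 4.85, 4.71 and 4.81 in dflox hearts, at 2 months, and at 4.50, 4.35 and 4.48 in knockout hearts, against 4.61, 5.01 and 4.53 in dflox hearts, at 1 month. Genotypes did not overlap at either age. The differences were −0.50 (SE 0.17, adjusted p = 0.216) and −0.27 (adjusted p = 0.798), and that at 2 months was −0.30 without knockout replicate 3. Calr, a calcium-binding lectin chaperone, differed by 0.40 at 2 months (SE 0.16, adjusted p = 0.26) on its brightest probe and by 0.43 on its other one. Its membrane-bound partner Canx differed by −0.38, but 2 of 3 dflox arrays at 2 months had no usable spot for the probe, and its other probes gave 0.17 and −0.062. The glycoprotein folding and disulfide enzymes Pdia3, Pdia4 and Pdia6 lay at 0.075, 0.46 and 0.023 at 2 months, with an SE of 0.22 for Pdia4. Hsp90b1 and Dnajb9 lay between −0.088 and 0.068 at both ages.

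Of the regulators of the unfolded protein response, 0 of 4 were called at either age. Ddit3, which encodes the stress factor CHOP (mm7, chr10:126796858-126797161), had the smallest p of all 38 members at 1 month. It was at 0.70, 0.68 and 0.73 in knockout hearts, against 0.21, 0.16 and 0.31 in dflox hearts, and the groups did not overlap. At 2 months it was at 0.76, 0.54 and 0.59 in knockout hearts, against 0.50, 0.44 and 0.86 in dflox hearts, which overlapped. The 1-month difference was 0.47 (SE 0.12, unadjusted p = 0.00281) and did not pass over all genes (adjusted p = 0.135). Within the slides with both genotypes at 1 month it was 0.46 and 0.49. With the airway marker level as a covariate it was 0.67 (adjusted p = 0.128), and with place on the slide as a covariate 0.52 (adjusted p = 0.717). Over both ages it was 0.25 and not called, but without dflox 2-month replicate 3 it was 0.32 and called (adjusted p = 0.0451). The genotype effect at 2 months was 0.033, and the difference between ages, −0.44, did not pass (SE 0.17, unadjusted p = 0.0275, adjusted p = 0.934). It was the 1 member of 38 at an unadjusted p under 0.05 in that comparison, against 3.52% of all genes, and 0% of all genes were called in it. Atf4, Xbp1 and Trib3 differed by 0.075, 0.018 and −0.12 at 1 month and by 0.11, 0.22 and 0.031 at 2 months, with Xbp1 at 0.017 without knockout replicate 3.

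**Figure D3:**
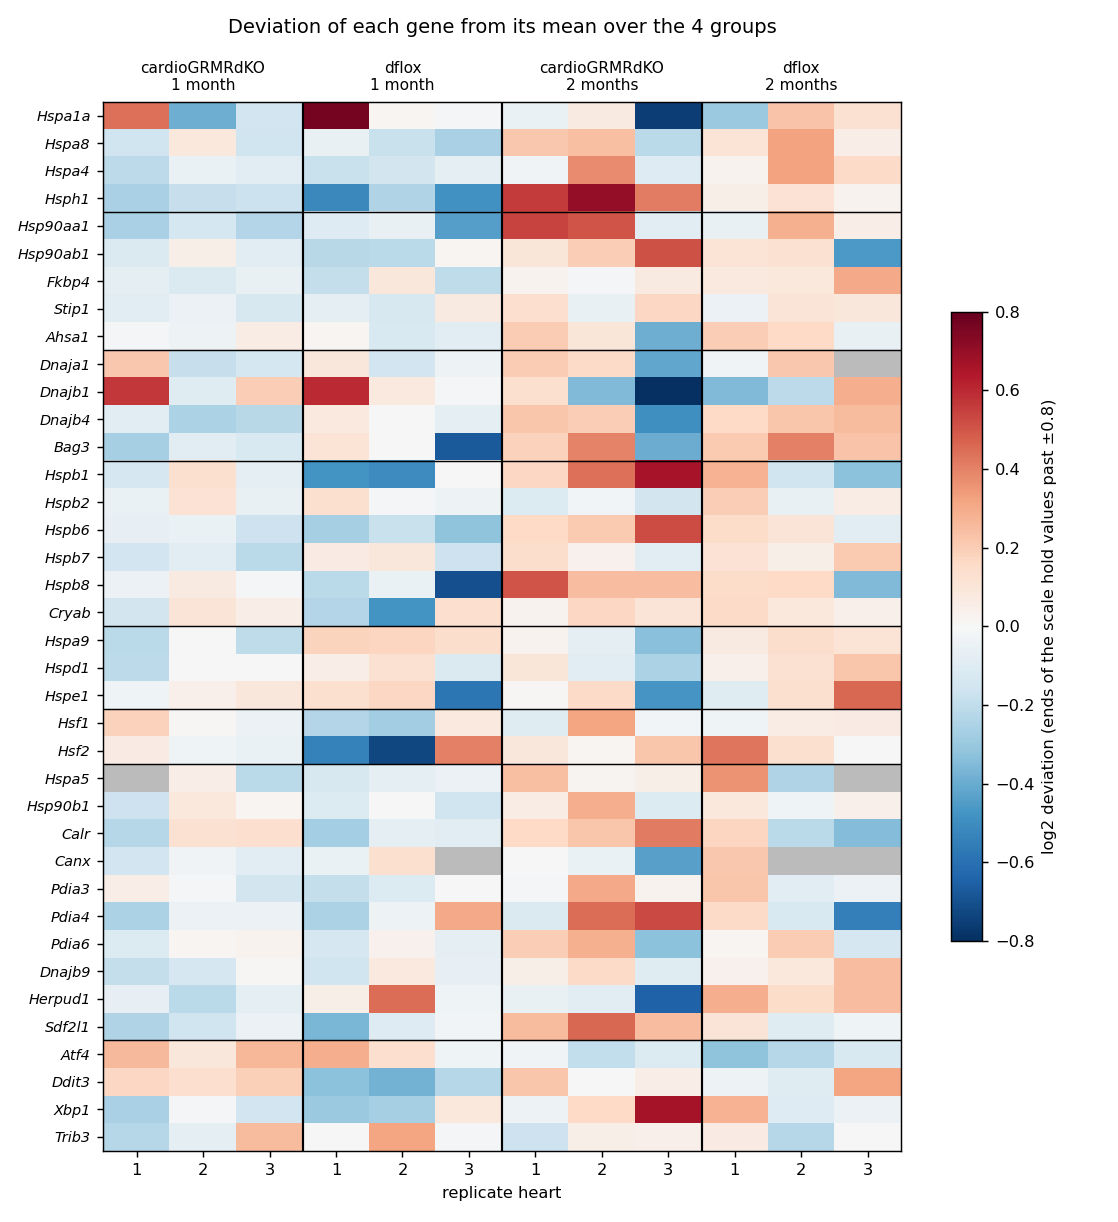
Deviation of each of the 38 genes from the mean of its 4 group means in the 12 hearts (log2, blue lower, red higher). Genes are ordered by role, with lines between roles. Grey cells are outlier spots with no value. The row of Hsph1 is reddest in the 3 knockout hearts at 2 months, and knockout 2-month replicate 3 is blue for the HSP40 and BAG genes, whose median is −0.45 there.

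Between the ages, most members were higher at 2 months in both genotypes, and 1 of these differences was called. In knockout hearts 27 of 38 members lay above 0, beside 8380 of all 18274 genes, and in dflox hearts 32 of 38, beside 10553 of all genes. The median log2 difference, 2 months minus 1 month, was 0.13 in knockout and 0.16 in dflox hearts, beside −0.023 and 0.051 over all genes. Age and slide are largely bound together in dflox hearts. Slide 1 held 1 heart of each age, while the other 1-month hearts lay on slide 2 and the other 2-month hearts on slide 3. Between the dflox hearts of slide 1 the median difference was 0.20 for the members and −0.044 over all genes. The 2 genotypes share no heart, and 25 members lay above 0 in both and 4 below 0 in both (Hspa1a, Dnajb1, Atf4 and Trib3). In knockout hearts 1 of 38 was called, Hsph1, against 0.378% of all genes. In dflox hearts 0 of 38 were called, against 0.553%. At an unadjusted p under 0.05 there were 6 members in knockout hearts, against 12.4% of all genes, and 7 in dflox hearts, against 14.1%. The ages did not overlap for 10 members in knockout hearts (18% of all genes), 9 of them higher at 2 months (7.2% of all genes), and for 9 members in dflox hearts (20.2%), 8 of them higher (11.6%).

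Hsph1 rose by 0.76 in knockout hearts at 2 months relative to 1 month, 1.70-fold (SE 0.11, adjusted p = 0.0275, limma), with 3.56 ± 0.15 at 2 months and 2.80 ± 0.047 at 1 month (SD, n = 3 each). With the airway marker level as a covariate the call was lost (adjusted p = 0.0611). Each of the 3 slides held knockout hearts of both ages, and the difference on them was 0.60, 0.73 and 0.96. The call was lost when dflox 1-month replicate 3, any knockout 1-month heart, or knockout 2-month replicate 1 or 2 was left out (adjusted p 0.0506 to 0.122), and over all 12 fits without 1 heart the difference lay between 0.69 and 0.84. In dflox hearts it averaged 3.07 ± 0.046 at 2 months and 2.60 ± 0.15 at 1 month, a difference of 0.47 that did not pass (SE 0.11, adjusted p = 0.0809). Hsp90aa1 differed between ages by 0.53 in knockout hearts (SE 0.18, adjusted p = 0.25) and 0.29 in dflox hearts, and Hspb6 by 0.39 (adjusted p = 0.19) and 0.31. Sdf2l1 differed by 0.47 in knockout hearts (SE 0.12, adjusted p = 0.135) and 0.15 in dflox hearts.

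Some members ran against this direction. Atf4, the translation-controlled factor of the stress response, was at 0.85, 0.68 and 0.76 at 2 months, against 1.14, 0.96 and 1.14 at 1 month, in knockout hearts. In dflox hearts it was at 0.55, 0.65 and 0.75 at 2 months, against 1.16, 1.01 and 0.84 at 1 month. Every 2-month heart was below every 1-month heart of its genotype, but the differences of −0.32 (SE 0.11, adjusted p = 0.273) and −0.36 (adjusted p = 0.189) did not pass. Dnajb1 differed by −0.58 in knockout hearts (95% interval −1.20 to 0.048) and −0.31 in dflox hearts. Ddit3 differed by −0.072 in knockout hearts and by 0.37 in dflox hearts (SE 0.12 each, adjusted p = 0.902 and 0.211). Fkbp4, by contrast, ran with the majority on its brightest probe, by 0.11 in knockout and 0.26 in dflox hearts (adjusted p = 0.779 and 0.326). Its dimmer probe gave 0.17 and −0.070.

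**Figure D4:**
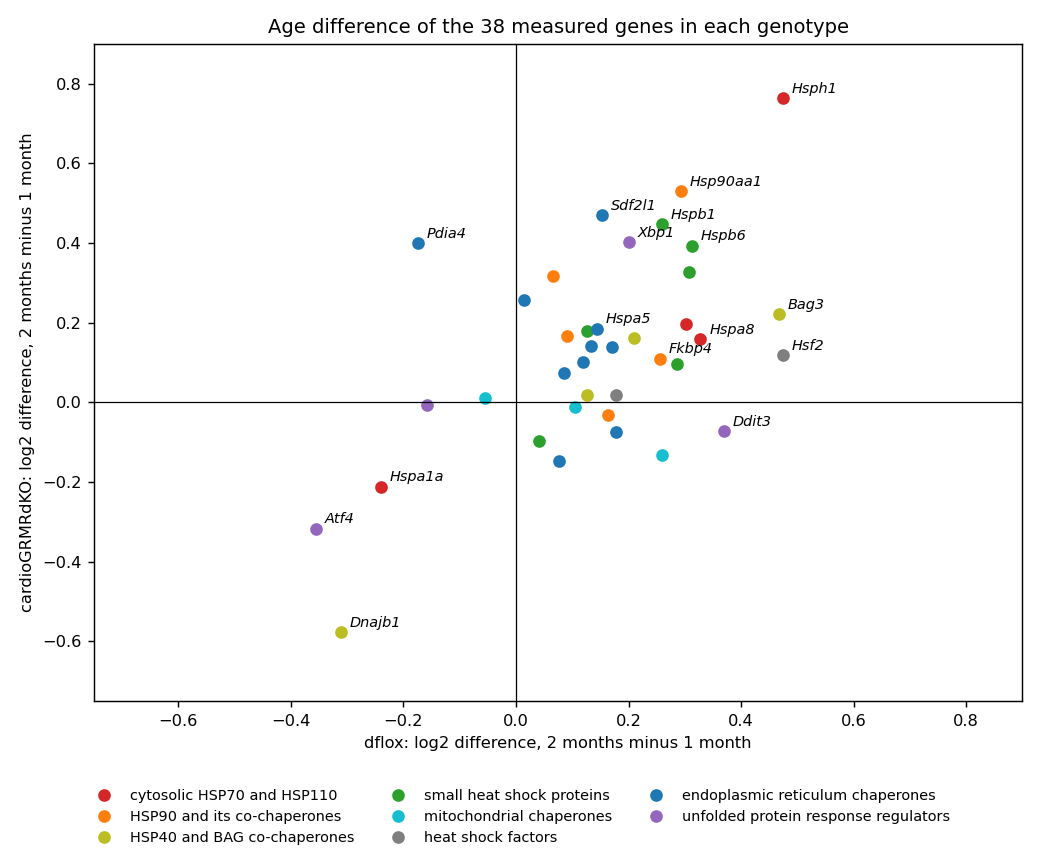
Log2 difference between 2 months and 1 month of each of the 38 genes, in knockout (cardioGRMRdKO) hearts on the vertical and dflox hearts on the horizontal axis, coloured by role, with some genes named. Of the points, 25 lie above 0 on both axes, with Hsph1 farthest up at 0.76 and 0.47.

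Genes around these members were taken from lists of other chaperones and stress genes. Over both ages together, 2 of 44 other cytosolic chaperones and co-chaperones rose in knockout hearts, 1 fell and 41 did not pass. Over all genes, 4.5% were called in this comparison, 2.25% in each direction. Bag2, an inhibitor of the HSP70 co-chaperone CHIP, rose by 0.47 (SE 0.092, adjusted p = 0.016), Hspa1l, an HSP70 best known from testis, by 0.42 (SE 0.10, adjusted p = 0.0453), and Hspa12a, a distant HSP70 relative, fell by 0.36 (SE 0.086, adjusted p = 0.0449). Of 32 other unfolded protein response genes 1 rose, P4hb, a protein disulfide isomerase, by 0.42 (SE 0.088, adjusted p = 0.0244), and 31 did not pass. When single hearts were left out in turn, the call held in 11 of 12 fits for Bag2 (lost without knockout 1-month replicate 2, adjusted p = 0.0516), 6 for P4hb, 2 for Hspa1l and 1 for Hspa12a. Under 13 other settings of the analysis it held in 8 for Bag2 (adjusted p up to 0.257), 7 for P4hb (up to 0.428), 6 for Hspa1l (up to 0.357) and 4 for Hspa12a (up to 0.506). At a single age, 0 of the 44 and 0 of the 32 genes were called, where 0.969% of all genes were at 1 month and 2.31% at 2 months. At an unadjusted p under 0.05 there were 3 and 1 at 1 month, against 9.39% of all genes, and 10 and 7 at 2 months, against 15.6%.

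Among 17 targets of the integrated stress response, which Atf4 serves, 2 rose, 1 fell and 14 did not pass over both ages together. The share called over all genes was 4.5%. Gdf15, a stress cytokine, rose 3.65-fold at 1 month (adjusted p = 0.00181) and 8.29-fold at 2 months (adjusted p = 8.99e-05), and Mthfd2, a mitochondrial folate enzyme, rose 3.14-fold at 2 months (log2 1.65, SE 0.26, adjusted p = 0.00879). Cebpb, a factor that pairs with Ddit3, fell by 0.65 over both ages (SE 0.11, adjusted p = 0.00728). Each of these calls held in all 12 fits without 1 heart. Other settings ended the call in 3 of 14 for Gdf15 at 1 month (adjusted p up to 0.311), 0 of 14 for Gdf15 at 2 months, 3 of 14 for Mthfd2 (up to 0.28) and 3 of 13 for Cebpb (up to 0.378), and with normexp background correction the log2 difference of Mthfd2 was 0.87. The median difference of this list was −0.035, beside −0.058 over all genes. Between ages in knockout hearts, 1 of these 17 genes and 1 of the 32 other unfolded protein response genes were called, against 0.378% of all genes. Gdf15 rose by 1.74 at 2 months relative to 1 month (SE 0.19, adjusted p = 0.0075, limma). That call was kept in 10 of 12 fits without 1 heart and under 10 of 14 other settings. Stc2, a secreted glycoprotein raised by the unfolded protein response, fell by 0.90 between these ages (SE 0.13, adjusted p = 0.0275). Its call was kept in 5 of 12 fits without 1 heart and under 5 of 14 other settings. None of the 12 mitochondrial quality control, 13 immediate early and 15 clock genes tested was called in a genotype comparison by limma, with 0 of each at an unadjusted p under 0.05 at 1 month, 3, 1 and 2 at 2 months and 2, 1 and 3 over both ages, against 9.39%, 15.6% and 17.6% of all genes in these comparisons.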

How the data were processed

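RNA from 12 mouse hearts was hybridised to single-colour Agilent whole mouse genome arrays. Per the file headers, the authors' scanner files hold Feature Extraction 9.5.3.1 intensity values with background already subtracted, and probe positions are on mm7. The deposited value table equals these intensity values at 100% of 45018 spots, within a relative tolerance of 1e-05. Outlier spots were left out, log2 was taken of each deposited intensity, and each array's 75th percentile was subtracted. A probe was kept where some group had all 3 of its arrays well above background for it, and the brightest kept probe stood for a gene. Probes were named through RefSeq accessions (22944), current symbols (6587), older symbols (3076), other accessions (124) or the file's own name (8443).

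The 4 group means were fitted over all 12 arrays with limma 3.58.1 in R 4.3.3, two-sided, with Benjamini-Hochberg adjustment over 18274 genes. The labels name littermate controls but not which hearts shared a litter, so p-values measure the spread between these hearts, and their number limits the precision. On data simulated for the 2-month comparison (17798 genes) the fit recovered 58% of genes changed by 1 log2 unit and 83% of those changed by 2, with 6 false calls. The members' differences at 2 months ran from −0.50 to 0.49, smaller than both simulated sizes, so recovery at their size was not measured. The members and the gene lists were chosen with earlier results of these data known. Values in every heart were given for members called in any comparison, for the member with the smallest p of each role, and for Fkbp4, Hspa5, Hsf1 and Ddit3. From the other lists, genes called in a genotype comparison, Fkbp5, Nr3c1 and Nr3c2 were named. Hspa1a, Herpud1, Atf4, Fos, Stc2 and other members with single values were singled out after their values were seen. Alternatives covered background correction, normalization, the filter, the choice of probe, slide, place, airway markers, replicate blocks and single hearts left out.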

Additional observations from a re-analysis of the deposited data

How the results depend on the processing

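With 3 hearts a group the median half-width of a member's 95% interval was 0.33, and dim genes such as Hsf2 have little signal over background. No difference reversed past a threshold. The count of members called at 1 month, and that for the change of the genotype effect with age, was 0 under every alternative run. At 2 months the count was 1 and became 0 with normexp, with no filter on dim probes, with slide as a fixed block, with place on the slide as a covariate, in a fit of only the 2 groups compared and, in alternatives chosen after seeing the data, without the arrays of slide 1, 2 or 3 and with every kept probe fitted on its own. Over both ages the count of 1 became 0 with no filter, with place, with the airway marker level and without slide 1, 2 or 3. Between ages in knockout hearts the count of 1 became 0 with no filter, with place, with the airway marker level, with only the 2 groups and without slide 1, 2 or 3. In dflox hearts the age count of 0 became 1 with normexp, through Hsph1 (0.68, adjusted p = 0.0446). Leaving out single hearts gave counts of 0 to 1 at 2 months, 0 to 1 over both ages, 0 to 1 between ages in knockout hearts and 0 elsewhere. Without dflox 2-month replicate 3 the 1 member called over both ages was Ddit3 (adjusted p = 0.0451) and not Hsph1. The cause of these changes was not tested. Same-numbered hearts did not deviate together in every pair (correlations −0.305 to 0.553), so the numbers are not taken as pairs. With a replicate block 0 members were called at 2 months (Hsph1 0.49, adjusted p = 0.0536), while Hsph1 kept its call over both ages (adjusted p = 0.0342) and between ages in knockout hearts (adjusted p = 0.0418). The all-gene median at 2 months was −0.095, and −0.13 with normexp, −0.15 with no filter and −0.024 with quantile normalization.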
